A study of Mus musculus with 15 samples.

Results

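The 36 genes described here are used as markers of the liver endothelium, and they were taken by symbol from a table of 19464 gene rows measured by RNA sequencing of whole liver. All 36 symbols were found, each on 1 row. They fell into 13 genes of the sinusoidal endothelium (Lyve1, Clec4g, Fcgr2b, Flt4, Oit3, Gpr182, Gata4, Maf, Bmp2, Dnase1l3, Plxnc1, Ehd3 and F8), 18 genes grouped as pan-endothelial (Kdr, Flt1, Pecam1, Cdh5, Tek, Tie1, Eng, Emcn, Vwf, Cd34, Plvap, Ramp2, Egfl7, Esam, Robo4, Nos3, Sox18 and Ptprb) and 5 leukocyte adhesion genes (Icam1, Icam2, Vcam1, Sele and Selp). Not all of the pan-endothelial group are equally general, as Vwf and Cd34 mark some vessels more than sinusoids. The livers came from mice without Stab1, which encodes the scavenger and adhesion receptor Clever-1 (stabilin-1), and from wildtype mice, all on a C57BL/6N;129SvJ background. At 2 weeks of age 4 Stab1-/- and 4 wildtype livers were sequenced, and at the fetal stage E17.5 3 Stab1-/- and 4 wildtype livers. The mice were described as lacking Clever-1 in all cells, so the deletion was not restricted to the endothelium. Whether wildtype mice were littermates is not given in the sources used here.

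Liver sinusoids are lined by a specialised endothelium with open pores and no continuous basement membrane, which clears waste macromolecules from blood through scavenger, lectin and Fc receptors and supplies clotting factor VIII and signals for hepatocytes. The endothelium of larger vessels shares with it the vascular endothelial growth factor (VEGF) receptors, the angiopoietin receptors and the junction proteins, while adhesion molecules on the endothelial surface let leukocytes roll and adhere. In the late fetus the liver is also the main site of blood cell formation, and this role passes to bone marrow around and after birth. Clever-1 itself is made by sinusoidal endothelial cells and by some macrophages.

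In units of 1000 reads, 9659 to 10964 were counted on genes in each library. Stab1 was read 68 to 119 times in Stab1-/- and 579 to 941 times in wildtype livers at 2 weeks, and 301 to 443 against 1244 to 1868 times at E17.5, so both genotypes followed their labels. Levels are given as RPKM, reads divided by gene length and by all reads counted on genes in the library, which allows genes of different length to be compared. Fold changes are log2 values from edgeR, which scales libraries by TMM instead of by their totals, with Benjamini-Hochberg adjusted p-values over all rows tested, and an adjusted p under 0.05 is a call. The p-values cover only the spread between these libraries. In whole liver, fewer endothelial cells and less RNA per endothelial cell cannot be told apart.

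Of the 36 genes, 35 had enough reads to be tested in each comparison. Sele, which encodes E-selectin, had 0 to 5 reads per library, at or near the floor of 3 reads taken as the least a library can show, and was not tested. Floors cover counting error only, because the reads carry no molecular identifiers.

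Promoter sequences are shown for Kdr and Plxnc1, which are 2 of the 4 members called at 2 weeks, and for Clec4g and Cd34, which moved in opposite directions between E17.5 and 2 weeks. They come from RefSeq on build GRCm38.p6, cover 240 bases that end 11 bases before the start RefSeq gives, which can differ from the GENCODE gene positions given further on, and run 5′ to 3′ on the gene's strand. Capitals mark the letters AGGAAG or CGGAAG (a core of ETS factor sites), AGATAA or TGATAA (a core of GATA factor sites) and GGGCGG (the GC box), on either strand. The windows were Kdr at chr5:75978466-75978705 (minus strand), Plxnc1 at chr10:94944856-94945095 (minus strand), Clec4g at chr8:3720662-3720901 (minus strand) and Cd34 at chr1:194938571-194938810 (plus strand).
Kdr: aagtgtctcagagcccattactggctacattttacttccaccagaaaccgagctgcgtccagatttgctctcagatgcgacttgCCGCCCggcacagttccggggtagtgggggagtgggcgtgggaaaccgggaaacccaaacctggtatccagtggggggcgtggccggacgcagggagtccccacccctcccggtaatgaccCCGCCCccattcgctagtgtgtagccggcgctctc
Plxnc1: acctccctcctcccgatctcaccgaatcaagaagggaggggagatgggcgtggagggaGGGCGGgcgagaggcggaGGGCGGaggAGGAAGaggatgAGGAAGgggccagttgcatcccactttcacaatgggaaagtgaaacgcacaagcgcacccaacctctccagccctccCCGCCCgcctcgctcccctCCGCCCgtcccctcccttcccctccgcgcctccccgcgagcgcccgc
Clec4g: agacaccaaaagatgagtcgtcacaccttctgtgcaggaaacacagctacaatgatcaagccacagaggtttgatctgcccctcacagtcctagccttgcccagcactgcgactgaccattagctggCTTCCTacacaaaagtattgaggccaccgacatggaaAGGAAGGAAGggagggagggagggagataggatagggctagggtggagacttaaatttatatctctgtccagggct
Cd34: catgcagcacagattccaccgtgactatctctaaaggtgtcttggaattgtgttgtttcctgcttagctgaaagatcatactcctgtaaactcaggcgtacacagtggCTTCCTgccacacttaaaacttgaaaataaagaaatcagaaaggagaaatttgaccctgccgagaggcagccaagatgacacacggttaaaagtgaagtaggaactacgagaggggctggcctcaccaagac
The Kdr window held 2 GC boxes and no ETS letters, the Plxnc1 window 4 GC boxes and 2 ETS matches, the Clec4g window 3 ETS matches and the Cd34 window 1. GATA letters were in none of these 4 windows. Over the 20 windows found for 18 of the 36 genes, 12 held the ETS letters (60%), against 37.6% of all 32851 windows of that length. GATA letters were in 2 of the 20 windows (10%) against 16.2% of all windows, and the GC box in 6 (30%) against 31.3%. A match is a description of the letters and not a bound site.

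In wildtype livers at 2 weeks the highest RPKM values among the members belonged to Clec4g (64.2 ± 11.9, SD, n = 4), a C-type lectin of sinusoidal endothelium, then Fcgr2b (32.3 ± 2.59), the inhibitory Fc receptor for IgG, Plvap (30.2 ± 6.53), a protein of endothelial diaphragms, Egfl7 (29.9 ± 3.61), a secreted endothelial factor, and Eng (28.7 ± 3.30), the endoglin co-receptor. From Fcgr2b to Eng neighbouring means differed by less than their SDs. At E17.5 the wildtype order was led by Vcam1 (96.7 ± 1.98, n = 4), an adhesion receptor for integrins, and Lyve1 (28.8 ± 0.995), a hyaluronan receptor of sinusoidal and lymphatic endothelium. Gpr182, a chemokine-scavenging receptor, followed with 21.9 ± 1.44, Ehd3, a membrane trafficking protein, with 21.5 ± 1.28, and Egfl7 with 20.6 ± 0.993, and these 3 means lay within their SDs of each other. Selp, which encodes P-selectin, stayed under 1 RPKM in all 15 libraries. The Stab1-/- livers had Clec4g and Fcgr2b first at 2 weeks and Vcam1 and Lyve1 first at E17.5 as well.

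**Figure D1:**
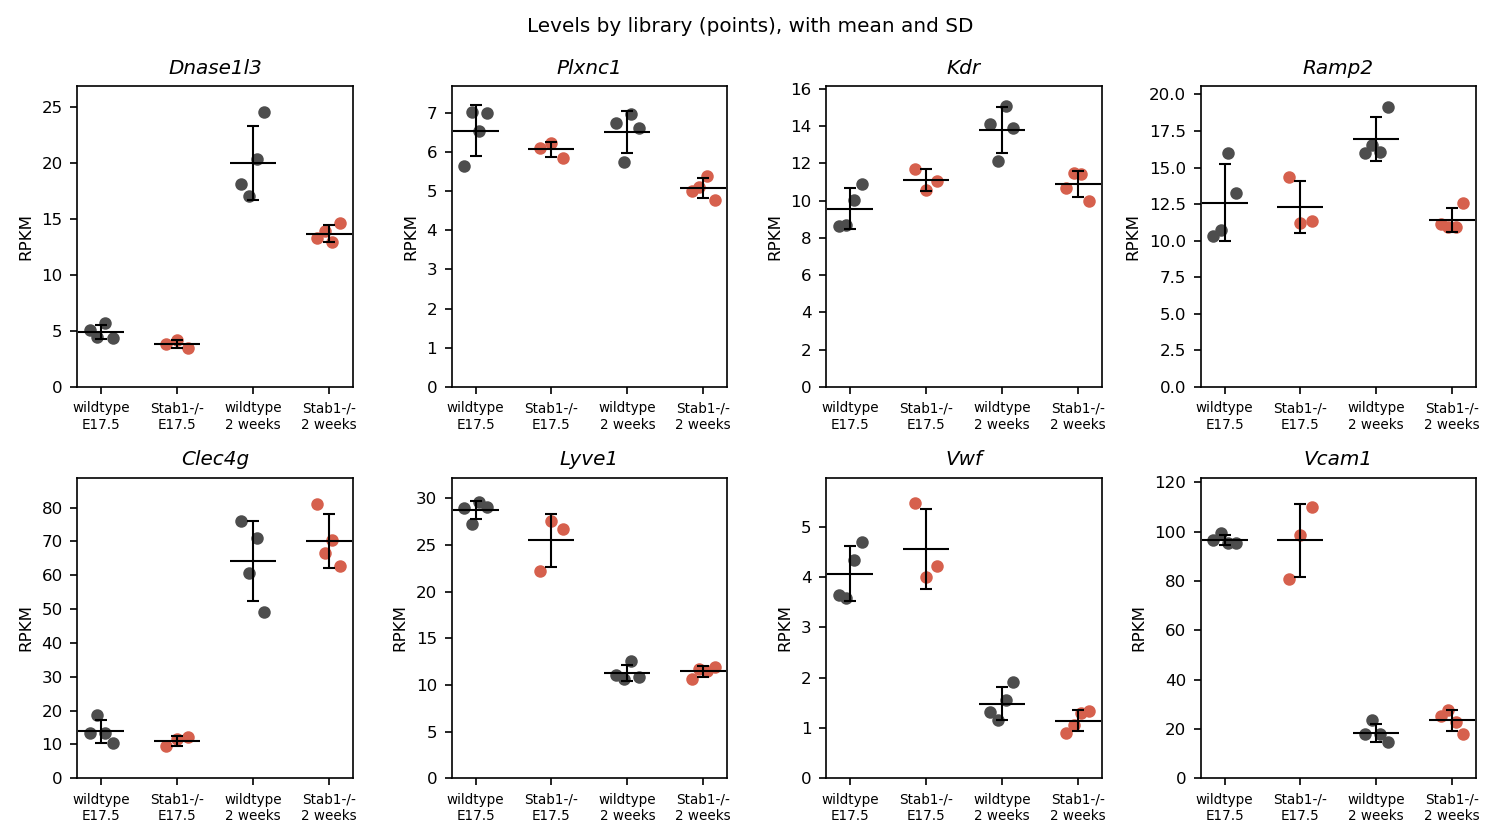
RPKM (vertical axes, from 0) of 8 endothelial genes, one panel per gene, in each liver library (points), with the mean (bar) and SD (whiskers) of the 4 groups of genotype and stage. The Stab1-/- points at 2 weeks lie below every wildtype point of that age for Dnase1l3, Plxnc1, Kdr and Ramp2, while Clec4g is higher and Lyve1, Vwf and Vcam1 are lower at 2 weeks than at E17.5 in both genotypes.

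The first question was whether the loss of Stab1 altered the endothelial genes at 2 weeks. Most of them were lower in Stab1-/- than in wildtype livers, by small amounts. The fitted log2 change was below 0 for 30 of the 35 tested genes (85.7%) with a median of -0.33, where the 12716 rows tested in all had a median of -0.01 and 52.0% of them lay below 0. The test called 4 members, all of them lower, where 2.67% of all rows were called, 1.74% lower and 0.936% higher. The called members were Ramp2 and Kdr among the pan-endothelial genes and Dnase1l3 and Plxnc1 among the sinusoidal genes, and none of the leukocyte adhesion genes was called by edgeR or DESeq2, with 1 at an unadjusted p under 0.05. An unadjusted p under 0.05 was reached by 18 of the 35 genes, where 2975 of the 12716 rows reached it. DESeq2 called 9 members, all lower, adding Flt4, Bmp2, Tek, Tie1 and Eng to the 4. It called 7.11% of all rows it tested. When libraries were scaled by their totals, the median of all rows moved from -0.01 to 0.08 and the calls over all rows split into 137 higher and 118 lower in place of 119 and 221.

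Dnase1l3 encodes a secreted DNase that degrades DNA in blood. Its RPKM values were 13.3, 13.9, 12.9 and 14.6 in Stab1-/- and 18.1, 17.02, 20.3 and 24.5 in wildtype livers. All 4 Stab1-/- values lay below the lowest wildtype value. The log2 change of Dnase1l3 was -0.64 (SE 0.138, adjusted p = 0.0328) by edgeR with Benjamini-Hochberg adjustment, a level 1.56-fold lower. Plxnc1 encodes a plexin that binds semaphorin 7A, and it was read at 5.01, 5.12, 5.40 and 4.79 RPKM in Stab1-/- and 6.75, 5.74, 6.96 and 6.61 RPKM in wildtype livers, again without overlap. Its log2 change by edgeR was -0.45 (SE 0.101, adjusted p = 0.0400), or 1.37-fold lower. In the annotation exons of Plxnc1 overlap those of Gm48718 on the same strand. The part of Gm48718 in the Plxnc1 values was not tested. With every library kept, library totals and both limma fits on RPKM ended the Plxnc1 call, and both limma fits the Dnase1l3 call.

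Ramp2, a partner of the adrenomedullin receptor that is needed for vessel integrity, had 11.2, 10.95, 10.9 and 12.6 RPKM in Stab1-/- and 15.99, 16.5, 16.1 and 19.1 RPKM in wildtype livers. No Stab1-/- library reached the lowest wildtype library. The edgeR log2 change of Ramp2 was -0.66 (SE 0.131, adjusted p = 0.0231), which is 1.58-fold lower. In the annotation exons of Ramp2 overlap those of Vps25 on the same strand, and Vps25 had a log2 change of -0.01 (SE 0.0900, edgeR adjusted p = 0.951). Kdr, the main signalling receptor for VEGF (also called VEGFR2), had 10.7, 11.5, 11.4 and 9.98 RPKM in Stab1-/- and 14.1, 12.1, 15.1 and 13.9 RPKM in wildtype livers. These groups did not overlap either, though the highest Stab1-/- and the lowest wildtype library were close. Kdr changed by -0.43 (SE 0.104, adjusted p = 0.0476) on the log2 scale by edgeR and was 1.35-fold lower. The call of Kdr was lost in 4 of the 10 alternatives that kept every library (median-of-ratios, library totals and both limma fits).

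The number of members called at 2 weeks rested on single libraries. It fell from 4 to 0 without Stab1-/- replicate 1, 2 or 3 or wildtype replicate 3 or 4, to 1 without Stab1-/- replicate 4 and to 2 without wildtype replicate 1, and rose to 8 without wildtype replicate 2. The direction of the called genes did not change in any of these fits: the log2 change stayed between -0.74 and -0.58 for Ramp2, -0.72 and -0.51 for Dnase1l3, -0.52 and -0.41 for Plxnc1 and -0.50 and -0.38 for Kdr.

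Among the sinusoidal genes 11 of 13 had a log2 change below 0 at 2 weeks, with a median of -0.24, which was -0.13 without wildtype replicate 4. Beside Dnase1l3 and Plxnc1, the smallest unadjusted p belonged to Bmp2, a ligand through which sinusoidal endothelium sets hepatocyte iron sensing. Bmp2 had 4.01, 4.75, 3.43 and 4.52 RPKM in Stab1-/- and 5.44, 4.84, 6.13 and 5.97 RPKM in wildtype livers, without overlap, and a log2 value of -0.51 (SE 0.144, adjusted p = 0.0763) by edgeR. Flt4, the receptor for VEGF-C, had -0.33 (edgeR adjusted p = 0.0863) and groups that did not overlap, and Ehd3 had -0.43 (edgeR adjusted p = 0.111) with overlapping groups. Bmp2 and Flt4 passed the edgeR threshold only without wildtype replicate 2, among the fits that left out a library.

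Clec4g, Fcgr2b and Lyve1 did not pass the test. Clec4g had 81.1, 66.5, 70.5 and 62.7 RPKM in Stab1-/- and 75.95, 60.6, 70.97 and 49.1 RPKM in wildtype livers. The groups overlapped over most of their range, and its log2 value was 0.04 with an interval of -0.21 to 0.29 (edgeR adjusted p = 0.884). For Fcgr2b the RPKM values were 27.2, 35.7, 28.4 and 33.7 in Stab1-/- and 34.9, 28.9, 33.6 and 31.9 in wildtype livers, again overlapping, with a log2 value of -0.14 and an interval of -0.38 to 0.11 (edgeR adjusted p = 0.544). Lyve1 was read at 10.7, 11.7, 11.5 and 11.97 RPKM in Stab1-/- and 11.03, 10.6, 12.5 and 10.9 RPKM in wildtype livers, and its log2 value was -0.07 with an interval of -0.28 to 0.15 (edgeR adjusted p = 0.748). The Lyve1 ranges of both genotypes overlapped over most of their width. The remaining sinusoidal values lay between -0.33 for Gata4, the transcription factor of the sinusoidal programme, and 0.10 for Maf, a transcription factor used by sinusoidal cells and macrophages, with Gpr182 at -0.24, Oit3 at -0.16 and F8, the gene of clotting factor VIII, at -0.08.

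Among the pan-endothelial genes 16 of 18 lay below 0 at 2 weeks, with a median of -0.34. Tek, the angiopoietin receptor TIE2, had 3.75, 4.04, 4.65 and 3.38 RPKM in Stab1-/- and 5.73, 4.55, 4.90 and 5.82 RPKM in wildtype livers. Its groups overlapped in 1 Stab1-/- and 1 wildtype library, and its log2 value was -0.50 (SE 0.126, adjusted p = 0.0545) by edgeR, just short of a call. The related receptor Tie1 was at -0.49 (edgeR adjusted p = 0.0706) and Eng at -0.43 (edgeR adjusted p = 0.0871), both without overlap.

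Of the general vessel markers, Pecam1 (CD31), which joins endothelial cells, had 9.17, 9.84, 10.6 and 8.82 RPKM in Stab1-/- and 12.1, 9.21, 11.4 and 11.4 RPKM in wildtype livers and a log2 value of -0.29 (SE 0.113, adjusted p = 0.152) by edgeR. Cdh5, the junction protein VE-cadherin, had 11.9, 13.3, 13.5 and 12.7 RPKM in Stab1-/- and 15.3, 13.5, 16.4 and 15.9 RPKM in wildtype livers, with -0.34 (SE 0.108, adjusted p = 0.102) by edgeR. In both genes 3 wildtype libraries stood above all Stab1-/- libraries and wildtype replicate 2 lay among them.

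Plvap had 19.3, 25.5, 24.3 and 24.95 RPKM in Stab1-/- and 24.95, 28.2, 27.9 and 39.8 RPKM in wildtype livers, where wildtype replicate 4 was far above the rest, and a log2 value of -0.46 (SE 0.166, adjusted p = 0.136) by edgeR. Vwf, which encodes von Willebrand factor and marks larger vessels more than sinusoids, had 0.895, 1.06, 1.30 and 1.34 RPKM in Stab1-/- and 1.31, 1.15, 1.56 and 1.92 RPKM in wildtype livers, with -0.47 (SE 0.201, adjusted p = 0.186) by edgeR. Cd34, a sialomucin of continuous endothelium and of blood progenitors, had 1.39, 2.02, 1.66 and 1.88 RPKM in Stab1-/- and 2.44, 2.04, 2.23 and 2.43 RPKM in wildtype livers, with -0.48 (SE 0.175, adjusted p = 0.134) by edgeR. Cd34 was the gene among these in which the groups did not overlap, and it rested on 36 to 68 reads per library. Values above 0 were seen for Emcn, endomucin, at 0.21 and Nos3, endothelial nitric oxide synthase, at 0.00. The other pan-endothelial values were -0.33 for Robo4, -0.33 for Sox18, -0.23 for Esam, -0.22 for Ptprb, -0.06 for Flt1 and -0.04 for Egfl7, none of them called.

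The leukocyte adhesion genes had log2 values from -0.68 to 0.25 at 2 weeks and a median of -0.19 over the 4 tested. Selp had the lowest, with only 14, 16, 12 and 17 reads in Stab1-/- and 22, 21, 30 and 20 reads in wildtype livers. Its groups did not overlap, and its log2 value was -0.68 (SE 0.238, adjusted p = 0.124) by edgeR. Icam1, an integrin ligand that arrests leukocytes, had 9.06, 9.72, 8.36 and 9.46 RPKM in Stab1-/- and 10.9, 10.04, 8.23 and 10.9 RPKM in wildtype livers, overlapping, with -0.22 (SE 0.116, adjusted p = 0.277) by edgeR. Vcam1 was the member of this group above 0, with 25.4, 27.7, 22.9 and 18.04 RPKM in Stab1-/- and 17.8, 23.5, 18.2 and 14.7 RPKM in wildtype livers and 0.25 (SE 0.144, adjusted p = 0.314) by edgeR. Icam2, a constitutive endothelial integrin ligand, was at -0.15 (edgeR adjusted p = 0.581).

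In RPKM, all 4 Stab1-/- libraries lay below all 4 wildtype libraries for 11 of the 35 genes at 2 weeks, 4 sinusoidal, 6 pan-endothelial and 1 adhesion gene, where 4.5% of all rows tested did so. The opposite order was found for 0 of the 35 genes, where 10.4% of all rows had it. The smallest two-sided p that an exact permutation test of 4 against 4 libraries can give is 0.0286. Any gene without overlap has this value by construction, so for these 11 genes it adds no further information.

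Summed over the 18 pan-endothelial genes, the level was 158 to 178 RPKM in Stab1-/- and 188 to 217 RPKM in wildtype livers at 2 weeks, so the groups did not overlap. Over the 13 sinusoidal genes the sums were 225 to 234 RPKM against 221 to 260 RPKM, and over the 5 adhesion genes 32.9 to 43.4 RPKM against 31.3 to 41.0 RPKM, and both pairs of ranges overlapped. Clec4g alone gave 64.2 of the mean sinusoidal sum of 242 RPKM in wildtype livers. The plot of summed levels gives these values beside those at E17.5.

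**Figure D2:**
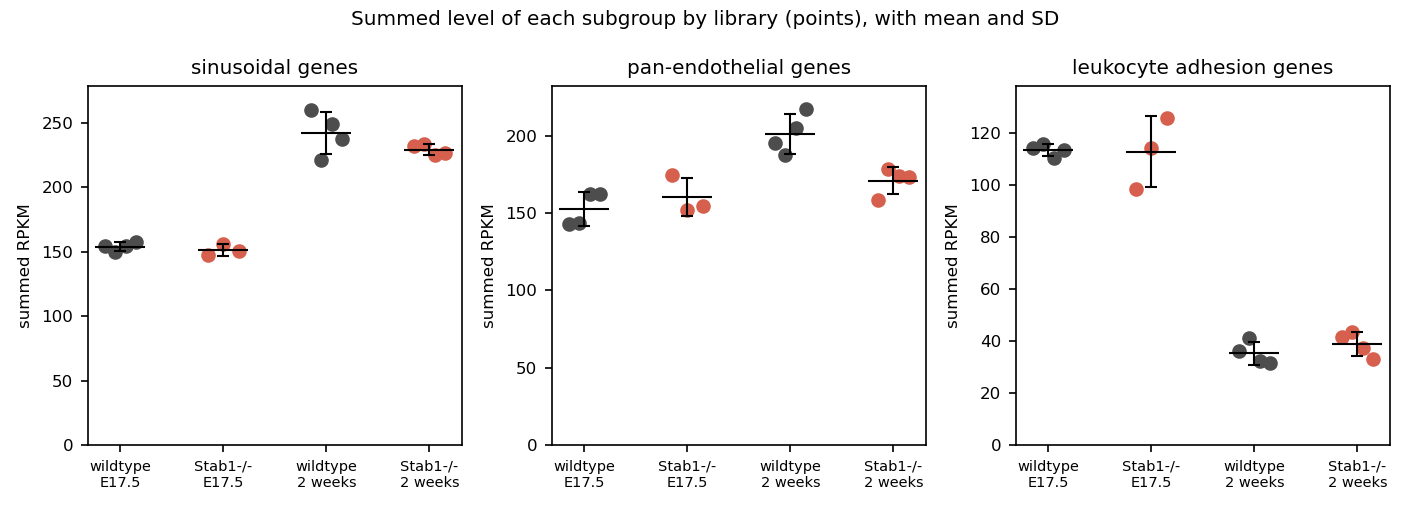
Summed RPKM (vertical axes, from 0) of the 13 sinusoidal, 18 pan-endothelial and 5 leukocyte adhesion genes in each liver library (points), with mean (bar) and SD (whiskers) of the 4 groups. Pan-endothelial sums at 2 weeks are 158 to 178 RPKM in Stab1-/- and 188 to 217 RPKM in wildtype livers, and adhesion sums fall from 98.3 to 126 RPKM at E17.5 to 31.3 to 43.4 RPKM at 2 weeks over both genotypes.

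Other cell types moved with this comparison. Over 10 stellate and mesenchymal markers 8 were below 0 at 2 weeks, with a median log2 change of -0.46 and 4 called lower, and their summed level was 285 to 308 RPKM in Stab1-/- and 297 to 358 RPKM in wildtype livers. Hepatocyte markers had a median of -0.31, with 8 of 9 below 0 and 1 called lower by edgeR (3 lower and 1 higher by DESeq2), and sums of 76900 to 98000 RPKM against 97000 to 120000 RPKM. Over the 10 macrophage markers 7 were above 0 with a median of 0.16 and none called by edgeR or DESeq2 (2 at an unadjusted p under 0.05 in edgeR), and sums of 415 to 536 RPKM against 307 to 447 RPKM. The medians were -0.32 for the 4 B cell markers tested, -0.11 for 6 blood progenitor markers, -0.47 for 5 erythroid markers, 0.05 for 3 megakaryocyte markers and 0.01 for 3 lymphatic endothelial markers, with 1 lymphatic marker called lower, Reln, which is also in the stellate list, and none of the others called by edgeR or DESeq2, with 2 erythroid markers and 0 of the other 3 lists at an unadjusted p under 0.05 in edgeR. Over all 12716 rows 2975 had an unadjusted p under 0.05 in edgeR, and DESeq2 called 7.11% of the rows it tested. Every marker in these lists was read in at least 1 library of both groups except the progenitor marker Spink2, which had no read in either. Tf and Ccl21a of these lists were not analysed here. The part of these cell types in the endothelial values was not tested.

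The members had a median GC content of 51.7% against 50.0% over all rows tested and a median length of 3418 against 2847 bases. By subgroup the median GC content was 50.6% for sinusoidal, 54.3% for pan-endothelial and 49.7% for adhesion genes. The 2-week change of all rows drifted with GC content, from a median log2 value of 0.15 in the lowest of 4 bins of equal number to -0.02, -0.08 and -0.10 in the bins of higher GC content. In the same bins the members had medians of 0.21 over 3 genes, -0.36 over 12, -0.24 over 10 and -0.33 over 10. With an offset for GC content edgeR called 4 members.

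Genes of the pathways around these receptors were looked at from a list of 30 ligands, co-receptors and targets of endothelial signalling, of which 28 were tested. At 2 weeks edgeR called none in either direction and the median was -0.13. An unadjusted p under 0.05 was found for 8, where 2975 of the 12716 rows had it. DESeq2 called 1 of them, Bmpr2, a receptor for bone morphogenetic proteins, as higher, where it called 7.11% of all rows it tested. Of 20 endothelial transcription factors 1 was called, Heyl, a Notch target, with -0.84 (SE 0.182, adjusted p = 0.0330) by edgeR, and the median over the list was -0.05.

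At E17.5 none of the 35 tested members was called, where 0.366% of all 13388 rows were, 0.194% higher and 0.172% lower. Of the members 26 had a log2 value above 0 and 9 below, with a median of 0.08, where all rows had 0.00 and 50.3% lay above 0. An unadjusted p under 0.05 was reached by 5 members and by 1728 of all 13388 rows in edgeR. DESeq2 called 0 members as well. Scaling by library totals moved the median of all rows to -0.06 and the calls over all rows from 26 higher and 23 lower to 22 and 32. The medians of the subgroups were 0.08 for sinusoidal, 0.09 for pan-endothelial and 0.04 for adhesion genes, and these were so close to 0 that leaving out Stab1-/- replicate 2 turned the first to -0.01 and the last to -0.02, and library totals turned the last to -0.02.

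The lowest p at E17.5 belonged to Plvap, with 18.00, 14.7 and 15.9 RPKM in Stab1-/- and 13.2, 12.9, 14.1 and 13.6 RPKM in wildtype livers. All 3 Stab1-/- libraries were above the 4 wildtype libraries, and the log2 value was 0.33 (SE 0.0866, adjusted p = 0.174) by edgeR. Kdr had 11.7, 10.6 and 11.03 RPKM in Stab1-/- and 8.62, 8.69, 10.1 and 10.9 RPKM in wildtype livers, overlapping, with 0.28 (SE 0.0927, adjusted p = 0.266) by edgeR. In the sinusoidal group the smallest unadjusted p values were those of Maf, with 17.6, 14.5 and 13.3 RPKM against 14.2, 13.4, 11.97 and 13.8 RPKM and a log2 value of 0.24 (SE 0.105, adjusted p = 0.374) by edgeR, and of Dnase1l3. Dnase1l3 had 3.85, 4.16 and 3.44 RPKM in Stab1-/- and 5.07, 4.45, 5.67 and 4.37 RPKM in wildtype livers, with -0.30 (SE 0.135, adjusted p = 0.389) by edgeR. It was the 1 member whose Stab1-/- libraries all lay below the wildtype libraries at E17.5, where 9.3% of all rows did, and Plvap the 1 member in the opposite order, where 2.91% of all rows were. The smallest exact permutation p of 3 against 4 libraries is 0.0571.

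Cd34 was the member with the largest difference at E17.5, with 5.77, 2.88 and 3.85 RPKM in Stab1-/- and 5.95, 6.43, 7.06 and 5.53 RPKM in wildtype livers. Stab1-/- replicate 1 lay within the wildtype range and the other two below it, and the log2 value was -0.53 (SE 0.197, adjusted p = 0.315) by edgeR. For the other vessel markers the E17.5 log2 values by edgeR were 0.27 for Cdh5 (adjusted p = 0.307), 0.23 for Vwf (adjusted p = 0.472) and 0.10 for Pecam1 (adjusted p = 0.721). Of the sinusoidal surface receptors, the values were -0.27 for Clec4g (adjusted p = 0.582), 0.19 for Fcgr2b (adjusted p = 0.614) and -0.11 for Lyve1 (adjusted p = 0.657) by edgeR. Of the adhesion genes Icam1 had 8.12, 7.41 and 7.95 RPKM against 7.83, 7.72, 7.002 and 8.21 RPKM and 0.09 (SE 0.0878, adjusted p = 0.694) by edgeR, and Vcam1 80.9, 98.7 and 110 RPKM against 96.6, 99.5, 95.3 and 95.4 RPKM and 0.06 (SE 0.112, adjusted p = 0.838) by edgeR. For Icam1 and Vcam1 the genotypes overlapped, with intervals of -0.09 to 0.26 and -0.16 to 0.28 for the log2 difference. All remaining members lay between -0.06 and 0.24.

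Marker lists of other cell types had no gene called by edgeR at E17.5, and DESeq2 called 1 hepatocyte marker, Cps1, and 1 macrophage marker, Marco, higher. An unadjusted p under 0.05 by edgeR was reached by 3 hepatocyte, 3 macrophage, 3 B cell, 2 erythroid, 2 progenitor, 1 stellate and 1 lymphatic marker. Their medians were 0.06 for hepatocyte, 0.01 for stellate and mesenchymal, 0.12 for macrophage, -0.11 for erythroid, -0.14 for megakaryocyte, -0.35 for B cell, 0.07 for progenitor and 0.08 for lymphatic endothelial markers. The authors list genes described as intestinal or enteric, among them Alpi, Fabp2 and Actg2, as higher in Stab1-/- livers at E17.5. No intestinal markers were examined here, and their part in the endothelial values was not tested. None of the 28 signalling genes tested or the 20 transcription factors was called in this comparison by edgeR or DESeq2, with 10 and 2 at an unadjusted p under 0.05 in edgeR. Over all 13388 rows 1728 had such a p in edgeR, and DESeq2 called 1.64% of the rows it tested.

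**Figure D3:**
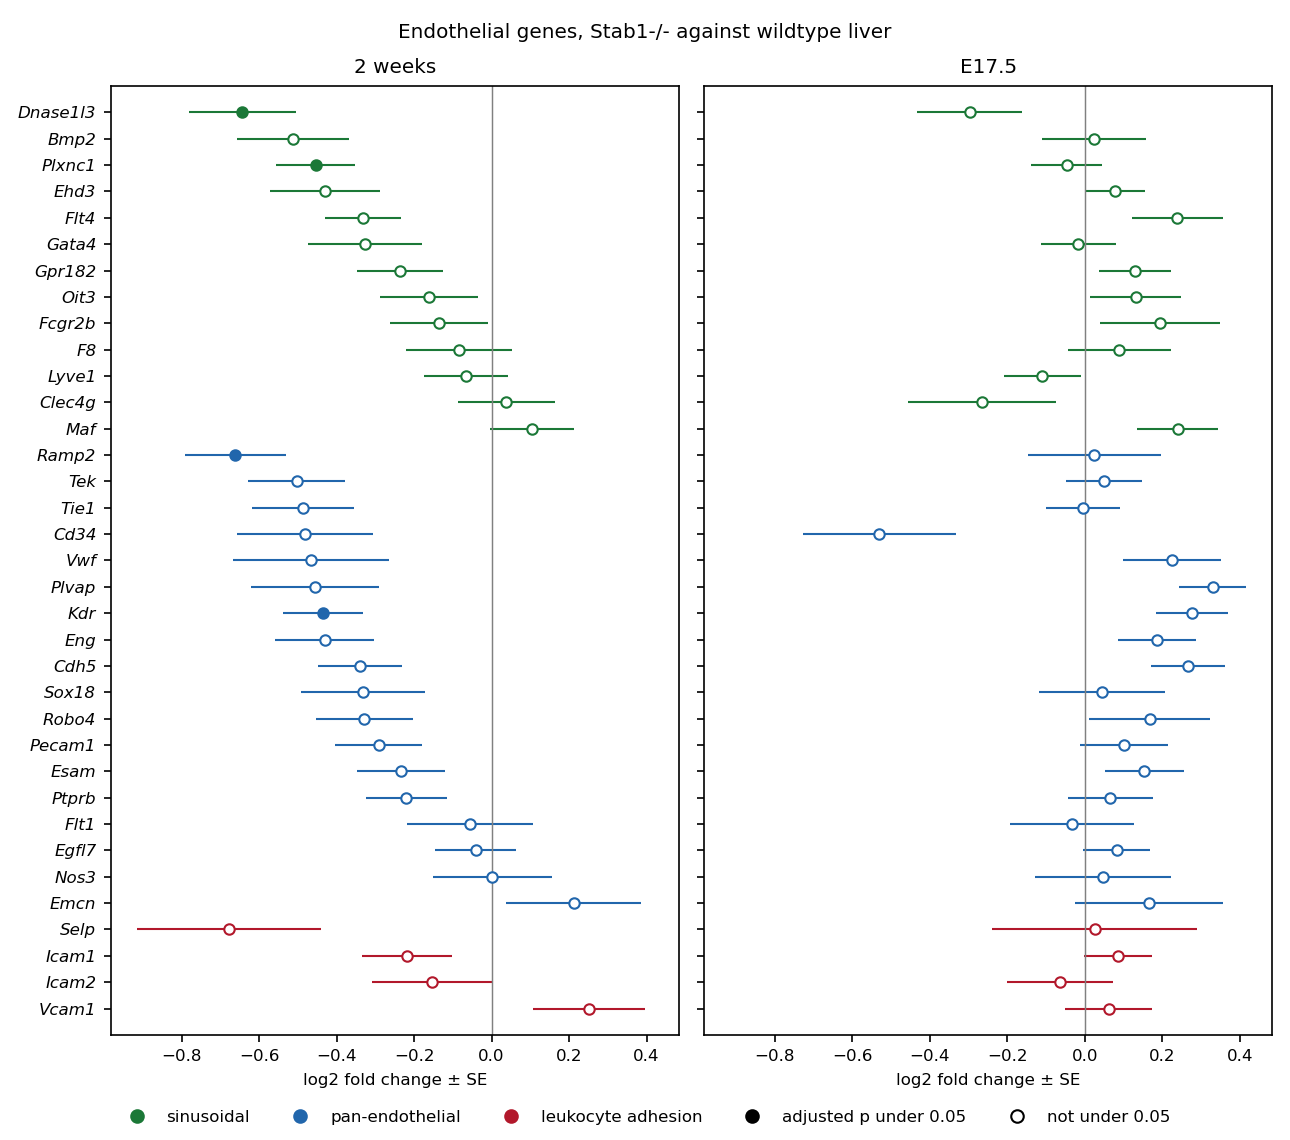
Log2 fold change of Stab1-/- against wildtype liver (horizontal axes, points with SE) for the 35 tested endothelial genes at 2 weeks and at E17.5, coloured by subgroup and filled where the adjusted p is under 0.05. At 2 weeks 30 of 35 points lie left of 0 and 4 are filled, and at E17.5 26 of 35 lie right of 0 and none is filled.

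Whether the genotype difference itself changed between E17.5 and 2 weeks was tested as the interaction in a fit of all 15 libraries. The interaction is the log2 difference of Stab1-/- from wildtype at E17.5 minus that at 2 weeks. A value above 0 thus means a difference that was lower at 2 weeks than at E17.5. The interaction was called for 1 member, Kdr, where 1.81% of all 13885 rows were called, 1.01% in the same direction and 0.799% in the other. Its genotype difference was 0.28 at E17.5 and -0.43 at 2 weeks, and the interaction was 0.68 (SE 0.134, adjusted p = 0.0270) by edgeR. Its RPKM in wildtype livers rose from 9.56 at E17.5 to 13.8 at 2 weeks, while in Stab1-/- livers it was 11.1 and 10.9. The interaction uses the same libraries as both genotype comparisons and both stage comparisons, so it is not separate evidence for them. Of the 35 members 29 had an interaction above 0, with a median of 0.33, where all rows had -0.01 and 49.4% lay above 0. An unadjusted p under 0.05 was reached by 16 members, where 3215 of the 13885 rows reached it. DESeq2 called 6 members, adding Cdh5, Plvap, Tek, Eng and Flt4, where it called 8.34% of all rows it tested.

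The stage values of Kdr by edgeR were 0.89 (SE 0.112, adjusted p = 1.52e-05) in wildtype and 0.19 (SE 0.0863, adjusted p = 0.0634) in Stab1-/- livers. Beside Kdr, the interactions with the smallest p were those of Cdh5 with 0.57 (SE 0.142, adjusted p = 0.0510), Flt4 with 0.53 (SE 0.146, adjusted p = 0.0648), Plvap with 0.75 (SE 0.205, adjusted p = 0.0656) and Eng with 0.58 (SE 0.171, adjusted p = 0.0759), all by edgeR and none called. The medians were 0.30 for sinusoidal, 0.40 for pan-endothelial and 0.16 for adhesion genes. Stellate and mesenchymal markers had a median of 0.64 and hepatocyte markers 0.33 in the same fit, with 1 hepatocyte marker called, and their part was not tested. Library totals moved the median of all rows to -0.12 and changed the calls over all rows from 140 higher and 111 lower to 83 and 209. The count of members called was 0 without Stab1-/- replicate 1 at either stage or without wildtype replicate 1 or 2 at E17.5, 2 without wildtype replicate 3 or 4 at E17.5, and 3 or 5 without wildtype replicate 1 or 2 at 2 weeks. The Kdr value stayed between 0.62 and 0.74 in these fits. Among the signalling genes Smad7, an inhibitory SMAD, had 0.87 (SE 0.201, adjusted p = 0.0437) and Angpt1, the activating ligand of Tek, -1.28 (SE 0.252, adjusted p = 0.0270) by edgeR, and no endothelial transcription factor was called by edgeR, with 2 at an unadjusted p under 0.05, while DESeq2 called Fli1, with a value below 0.

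The difference between E17.5 and 2 weeks was far larger than that between genotypes. In wildtype livers 71.9% of all 13369 rows were called, 34.9% higher and 37% lower at 2 weeks, so the calls over the members are read against these shares. Of the 35 members 25 (71.4%) were higher at 2 weeks and 4 (11.4%) lower, and the median log2 change was 0.66 where all rows had -0.01. The share of members called higher was thus above that of all rows and the share called lower below it. Library totals lowered the median of all rows to -0.38, and gave 18 members higher and 5 lower and 3104 rows higher and 6834 lower in place of 4667 and 4948.

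Among the sinusoidal genes of wildtype livers 11 of 13 were called higher and 1 lower at 2 weeks. With library totals and in both limma fits 6 were called higher, as Oit3, Gata4, Maf, Gpr182 and Plxnc1 no longer passed. The largest rise was that of Clec4g, from 13.3, 18.6, 13.5 and 10.4 RPKM at E17.5 to 75.95, 60.6, 70.97 and 49.1 RPKM at 2 weeks. Every 2-week library was above every E17.5 library, and the log2 change was 2.56 (SE 0.176, adjusted p = 6.30e-08) by edgeR, a 5.91-fold rise. Fcgr2b rose from 7.28, 7.20, 6.80 and 8.29 RPKM to 34.9, 28.9, 33.6 and 31.9 RPKM, with 2.49 (SE 0.107, adjusted p = 1.14e-09) by edgeR, or 5.62-fold. Dnase1l3 rose from 5.07, 4.45, 5.67 and 4.37 RPKM to 18.1, 17.02, 20.3 and 24.5 RPKM, with 2.40 (SE 0.154, adjusted p = 3.45e-08) by edgeR, or 5.27-fold. None of these 3 genes had overlapping stages. Fcgr2b is also used by B cells and macrophages, so it is not specific to sinusoids.

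Lyve1 went the other way, from 29.00, 27.3, 29.6 and 29.1 RPKM at E17.5 to 11.03, 10.6, 12.5 and 10.9 RPKM at 2 weeks in wildtype livers. All 2-week libraries lay below all E17.5 libraries, and the log2 change was -0.99 (SE 0.0973, adjusted p = 1.71e-06) by edgeR, 1.99-fold lower. The other called sinusoidal genes rose by 0.36 to 1.35 on the log2 scale, led by Bmp2 and Flt4. For Gpr182 and Plxnc1, at 0.36 each, the fit by library totals gave values just below 0, and F8 was not called (adjusted p = 0.0595 by edgeR). Relative to the median of the pan-endothelial genes, 0.74, the values were 1.82 for Clec4g, 1.75 for Fcgr2b, 1.66 for Dnase1l3, 0.61 for Bmp2, 0.39 for Flt4 and -1.73 for Lyve1, and the other 7 lay between -0.44 and -0.10.

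Among the pan-endothelial genes 12 of 18 were higher and 2 lower at 2 weeks in wildtype livers. Ptprb, the phosphatase VE-PTP that acts on Tek and Cdh5, rose from 2.32, 2.55, 2.53 and 2.83 RPKM to 8.52, 6.87, 8.21 and 8.81 RPKM, with 2.03 (SE 0.112, adjusted p = 9.43e-09) by edgeR. Plvap rose from 13.2, 12.9, 14.1 and 13.6 RPKM to 24.95, 28.2, 27.9 and 39.8 RPKM, with 1.54 (SE 0.151, adjusted p = 1.69e-06) by edgeR, and Eng by 1.004 (SE 0.125, adjusted p = 1.36e-05). In Ptprb and Plvap the stages did not overlap. Vwf fell from 3.65, 3.57, 4.34 and 4.70 RPKM to 1.31, 1.15, 1.56 and 1.92 RPKM, with -1.08 (SE 0.167, adjusted p = 8.60e-05) by edgeR, and Cd34 from 5.95, 6.43, 7.06 and 5.53 RPKM to 2.44, 2.04, 2.23 and 2.43 RPKM, with -1.09 (SE 0.130, adjusted p = 1.00e-05) by edgeR. Both had lower values in every 2-week library.

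The junction genes Pecam1 and Cdh5 had small stage values in wildtype livers. Pecam1 had 10.1, 9.55, 10.7 and 12.1 RPKM at E17.5 and 12.1, 9.21, 11.4 and 11.4 RPKM at 2 weeks, overlapping, and its call, at 0.42 (SE 0.115, adjusted p = 0.00574) by edgeR, was lost with library totals and by limma on RPKM, with a value as low as 0.05. Cdh5 had 16.3, 15.4, 18.1 and 20.2 RPKM and 15.3, 13.5, 16.4 and 15.9 RPKM and was not called, with 0.17 (SE 0.114, adjusted p = 0.209) by edgeR. The Cdh5 value ran from -0.20 to 0.23 over the alternatives that kept every library. Flt1, Tie1 and Nos3 were not called either.

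Of the adhesion genes Icam1 and Selp were higher and Vcam1 lower at 2 weeks in wildtype livers, and with library totals 1 was higher and 2 were lower. Vcam1 fell from 96.6, 99.5, 95.3 and 95.4 RPKM to 17.8, 23.5, 18.2 and 14.7 RPKM, the widest gap of any member in RPKM, with -2.02 (SE 0.124, adjusted p = 2.30e-08) by edgeR, 4.07-fold lower. The 4 values at E17.5 were almost equal and all were above every 2-week value. Icam1 rose from 7.83, 7.72, 7.002 and 8.21 RPKM to 10.9, 10.04, 8.23 and 10.9 RPKM, without overlap, with 0.74 (SE 0.110, adjusted p = 6.24e-05) by edgeR. Selp had 0.73 (SE 0.229, adjusted p = 0.0124) by edgeR on 15 to 30 reads per library, and the call was lost with library totals and by limma on RPKM. Icam2 was not called (-0.16, adjusted p = 0.334 by edgeR).

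In RPKM, the stages of wildtype livers did not overlap for 16 members higher at 2 weeks, against 21.1% of all rows, and 5 lower, against 48% of all rows. Of the marker lists, the erythroid and megakaryocyte lists had the medians farthest from 0 in this comparison. All 10 erythroid markers were called lower at 2 weeks with a median log2 change of -8.32, from a summed 2320 to 2830 RPKM to 30.1 to 52.8 RPKM. All 10 megakaryocyte markers were called lower with a median of -4.40, from 240 to 286 RPKM to 7.72 to 13.5 RPKM, and 7 of 8 B cell markers with a median of -1.43. Of the 8 progenitor markers 7 were tested, with 4 called lower and 1 higher. Hepatocyte markers had a median of 1.40, with 8 of 9 called higher, stellate and mesenchymal markers 0.91, with 8 of 10 called higher, and macrophage markers 0.05, with 2 called higher and 3 lower. Of the 4 lymphatic markers 2 were called higher and 1 lower. The called ones were Prox1, Mmrn1 and Reln, which is also in the stellate list. Vwf is also made by megakaryocytes, Cd34 by blood progenitors and Vcam1 by macrophages and stromal cells, and the part of these cells in the stage differences was not tested.

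In Stab1-/- livers, which share none of these libraries, 72.5% of all 13433 rows were called between stages, 35.7% higher and 36.8% lower at 2 weeks. Of the members 15 (42.9%) were higher and 5 (14.3%) lower, with a median log2 change of 0.24 where all rows had -0.01. Library totals moved the median of all rows to -0.24, and gave 9 members higher and 8 lower and 3758 rows higher and 5944 lower in place of 4791 and 4945. The sinusoidal genes had 6 higher and 1 lower, the pan-endothelial genes 8 higher and 3 lower, and the adhesion genes 1 higher and 1 lower. With library totals the pan-endothelial genes had 4 higher and 4 lower, and the adhesion genes 0 higher and 2 lower. The difference from wildtype livers is the interaction given above, and it was called for Kdr alone among the members.

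Clec4g rose in Stab1-/- livers from 9.43, 11.6 and 12.3 RPKM at E17.5 to 81.1, 66.5, 70.5 and 62.7 RPKM at 2 weeks, with 2.87 (SE 0.134, adjusted p = 1.17e-08) by edgeR. Fcgr2b rose from 7.33, 9.95 and 6.97 RPKM to 27.2, 35.7, 28.4 and 33.7 RPKM, with 2.17 (SE 0.178, adjusted p = 8.93e-07) by edgeR, and Dnase1l3 by 2.06 (SE 0.122, adjusted p = 6.72e-08). Lyve1 fell from 22.2, 27.6 and 26.7 RPKM to 10.7, 11.7, 11.5 and 11.97 RPKM, with -0.94 (SE 0.122, adjusted p = 3.67e-05) by edgeR. No stages overlapped for these 4 genes, so the sinusoidal genes that moved most in wildtype livers were also called in Stab1-/- livers. Against the pan-endothelial median of 0.29 the values were 2.58 for Clec4g, 1.88 for Fcgr2b, 1.77 for Dnase1l3 and -1.23 for Lyve1.

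The pan-endothelial genes with the largest rises in Stab1-/- livers were Ptprb with 1.76 (SE 0.105, adjusted p = 7.63e-08), Emcn with 0.93 (SE 0.180, adjusted p = 0.000700) and Egfl7 with 0.79 (SE 0.0949, adjusted p = 2.06e-05) by edgeR. Vwf fell from 5.47, 3.99 and 4.23 RPKM to 0.895, 1.06, 1.30 and 1.34 RPKM, with -1.76 (SE 0.160, adjusted p = 2.07e-06) by edgeR, Cd34 from 5.77, 2.88 and 3.85 RPKM to 1.39, 2.02, 1.66 and 1.88 RPKM, with -1.02 (SE 0.230, adjusted p = 0.00200), and Cdh5 from 21.8, 19.6 and 19.2 RPKM to 11.9, 13.3, 13.5 and 12.7 RPKM, with -0.43 (SE 0.0928, adjusted p = 0.00156). All 2-week libraries were below all E17.5 libraries in these 3 genes. Vcam1 fell from 80.9, 98.7 and 110 RPKM to 25.4, 27.7, 22.9 and 18.04 RPKM, with -1.83 (SE 0.152, adjusted p = 1.01e-06) by edgeR, and Icam1 rose by 0.45 (SE 0.108, adjusted p = 0.00306), a call that was lost with library totals and both limma fits, where its value was as low as 0.20. The stages of Stab1-/- livers did not overlap for 11 members higher at 2 weeks, against 28% of all rows, and 9 lower, against 44%.

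The same lists were compared in Stab1-/- livers. Erythroid markers had a median of -8.49 and megakaryocyte markers -4.37, with all 10 of each list called lower, and B cell markers -1.48, with 6 of 7 called lower. Hepatocyte markers had a median of 1.18, stellate and mesenchymal markers 0.49, macrophage markers -0.11, progenitor markers -0.58 and lymphatic markers -0.06. Their part in the endothelial values was not tested here either.

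**Figure D4:**
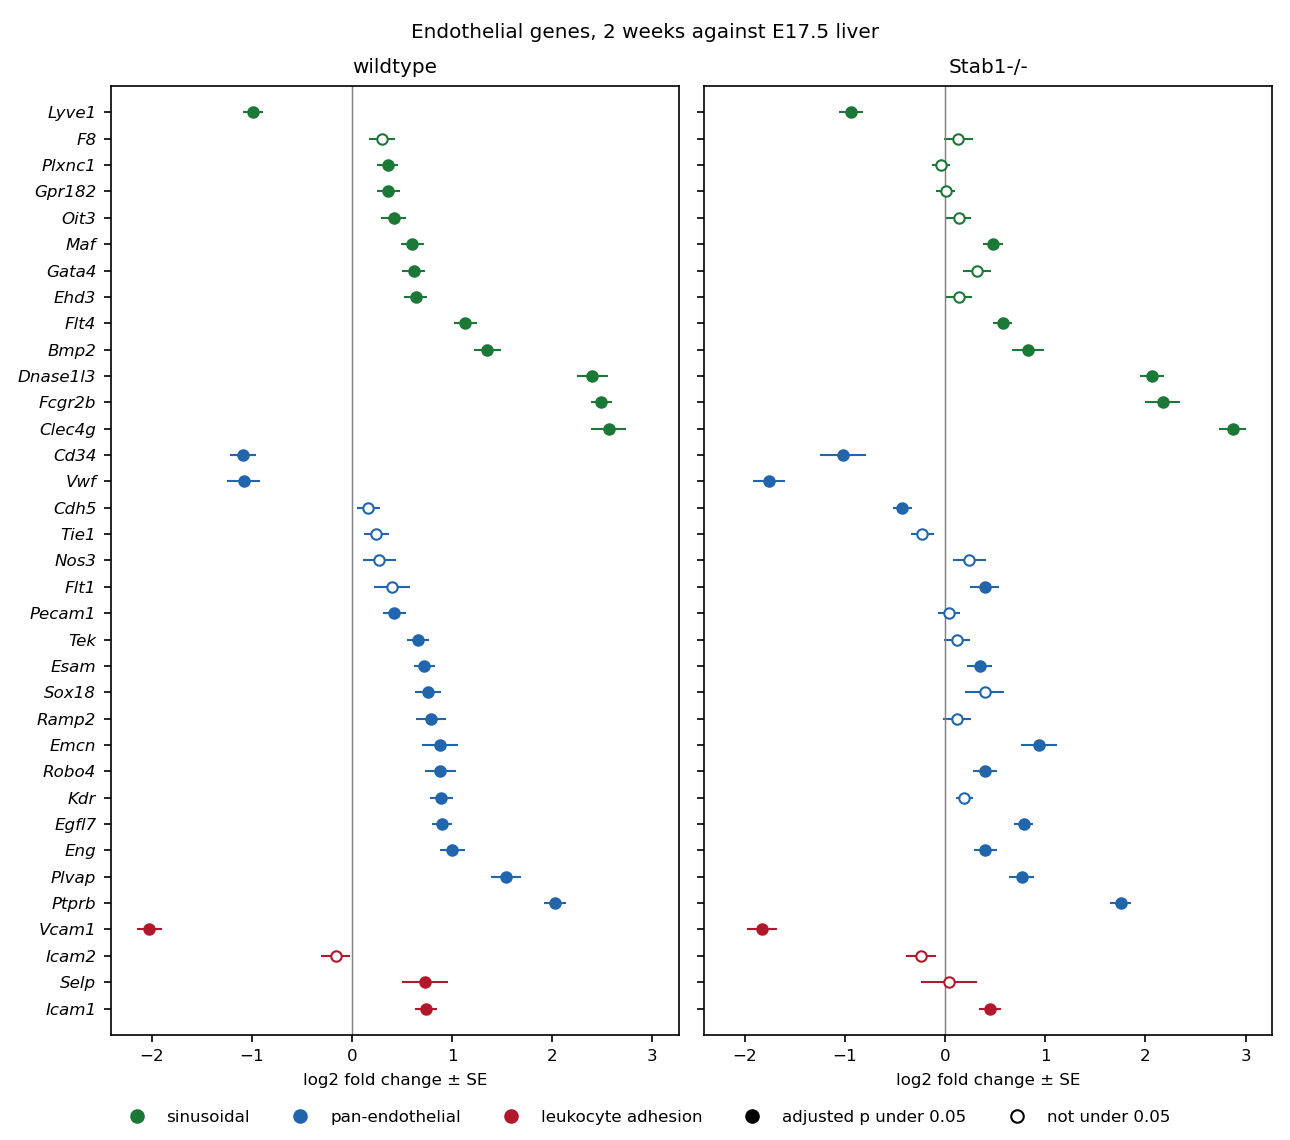
Log2 fold change of 2-week against E17.5 liver (horizontal axes, points with SE) for the 35 tested endothelial genes in wildtype and in Stab1-/- livers, coloured by subgroup and filled where the adjusted p is under 0.05. In wildtype livers 25 filled points lie right and 4 left of 0, and in Stab1-/- livers 15 lie right and 5 left, with Clec4g, Fcgr2b and Dnase1l3 farthest right and Vcam1, Vwf, Cd34 and Lyve1 farthest left in both.

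Of the 28 signalling genes tested in wildtype livers 17 (60.7%) were called higher and 5 (17.9%) lower at 2 weeks, where 34.9% and 37% of all rows were, with a median of 0.56 where all rows had -0.01. With library totals these were 12 and 6. The largest rises were those of S1pr1, the endothelial receptor for sphingosine 1-phosphate, with 2.18 (SE 0.120, adjusted p = 8.87e-09), and Nrp1, a VEGF co-receptor, with 1.62 (SE 0.105, adjusted p = 3.86e-08) by edgeR. The largest falls were those of Angpt1 with -1.56 (SE 0.181, adjusted p = 7.32e-06) and Aplnr, the apelin receptor, with -1.42 (SE 0.268, adjusted p = 0.000447) by edgeR. In Stab1-/- livers 12 (42.9%) were called higher and 4 (14.3%) lower, where 35.7% and 36.8% of all rows were, and with library totals 8 and 8. The called genes were led by S1pr1 with 1.997 (SE 0.120, adjusted p = 7.60e-08) and Nrp1 with 1.49 (SE 0.126, adjusted p = 1.22e-06) upward and Aplnr with -2.24 (SE 0.373, adjusted p = 0.000246) and Acvrl1, a receptor for bone morphogenetic proteins, with -1.02 (SE 0.208, adjusted p = 0.00104) downward.

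Of the 20 transcription factors 9 were called higher and 7 lower at 2 weeks in wildtype livers, where 34.9% and 37% of all rows were, and 7 and 9 with library totals. Epas1, the hypoxia factor HIF-2α, had 2.39 (SE 0.133, adjusted p = 1.02e-08) and Heyl 1.91 (SE 0.169, adjusted p = 6.54e-07) by edgeR, and the falls were led by Tal1 with -6.21 (SE 0.228, adjusted p = 3.35e-10) and Lyl1 with -4.70 (SE 0.203, adjusted p = 1.20e-09), a pair of factors that blood-forming cells also use. In Stab1-/- livers 6 were called higher and 6 lower, where 35.7% and 36.8% of all rows were, with Epas1 at 2.09 (SE 0.0988, adjusted p = 1.30e-08), Heyl at 1.51 (SE 0.226, adjusted p = 0.000108), Tal1 at -6.25 (SE 0.200, adjusted p = 1.10e-09) and Lyl1 at -4.37 (SE 0.170, adjusted p = 3.57e-09).

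Some members sit near each other in the genome. On GRCm38, Pecam1 and Icam2 lie on chromosome 11 within 106377656 to 106750628, Esam and Robo4 on chromosome 9 within 37401897 to 37538319, and Sele and Selp on chromosome 1 within 164048234 to 164150026. At 2 weeks the log2 values of the tested pairs were -0.29 for Pecam1 and -0.15 for Icam2, and -0.23 for Esam and -0.33 for Robo4. Of the genes called at 2 weeks, Dnase1l3 (gene ID 13421) lies on chromosome 14 from 7964533 to 7994573, Plxnc1 (54712) on chromosome 10 from 94790866 to 94944835, Kdr (16542) on chromosome 5 from 75932827 to 75978458 and Ramp2 (54409) on chromosome 11 from 101246028 to 101259546. Stab1 itself lies on chromosome 14 as well, and a part of neighbouring background sequence in the Dnase1l3 values was not tested. Beside Ramp2, the annotation has exons of other genes on the same strand over those of Plxnc1 and Egfl7. Exons on the opposite strand lie over those of Clec4g, Cd34, Eng, Nos3 and Vcam1, among others. Whether counting used strand is not given in the sources used here, and strand does not separate genes on the same strand. Reads of such overlapping genes thus cannot be separated.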

How the data were processed

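RNA was extracted from whole mouse liver and sequenced with Illumina libraries at a sequencing service. The authors deposited 1 table of 19464 gene rows. Its deposited counts are unnormalized numbers of uniquely mapped reads, its RPKM values are, per the authors, these reads divided by listed gene length and by the library's reads on genes, and the deposited coverage is the percent of each gene model covered by reads. Aligner, genome build and strand setting are not given in the sources used here. Tests on counts used edgeR 4.0.16 under R 4.3.3 (TMM, filterByExpr with a minimum count of 10 and total of 15, quasi-likelihood test, Benjamini-Hochberg adjustment over all rows, threshold 0.05), separately for each comparison, with all 15 libraries for the interaction. Differences of mean RPKM were given two-sided exact permutation tests. Alternatives were DESeq2 1.42.0, other scalings and filters, GC offsets with a loess span of 0.3, 1 fit of 15 libraries, a replicate block, limma 3.58.1 on log2(RPKM + 0.1) or log2(RPKM + 1) with a mean RPKM of at least 0.1, and leaving out each library.

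Gene positions and GC content are from GENCODE vM21 on GRCm38, and promoters from RefSeq. Genes named with values in every library were those called in a genotype comparison or the interaction, a list of 11 (Lyve1, Clec4g, Fcgr2b, Kdr, Pecam1, Cdh5, Plvap, Vwf, Cd34, Icam1, Vcam1), and per subgroup the 2 smallest unadjusted p of each genotype comparison. For stages these were the 3 largest called rises and falls per subgroup. The members and lists were chosen with earlier results of these data known. Libraries of 1 group differed by a chi-square per degree of freedom of at least 5.41, so none was counted as a repeat. On simulated counts with 200 genes changed by a log2 fold of 2, edgeR recovered 200 with 16 false calls among 12747 genes for the 2-week comparison, 195 with 18 among 13549 for E17.5, 199 with 13 among 13378 for wildtype stages, 199 with 13 among 13479 for Stab1-/- stages and 190 with 8 among 13824 for the interaction. The genotype differences of the members were all smaller than that, so these counts do not show how often such changes are found.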

Additional observations from a re-analysis of the deposited data

Results flagged for a closer look

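In 108 groups of 4 libraries, 4 held 1 library far from the other 3 by Dixon's criterion, where chance would give about 1 in 20, or 5.4. Flt1 was 3.45 RPKM in wildtype replicate 4 at 2 weeks, with the nearest library at 2.34. Robo4 was 4.85 RPKM in the same library, with the nearest at 3.98. Emcn was 4.78 RPKM in wildtype replicate 3 at 2 weeks, with the nearest at 3.62. Ramp2 was 12.6 RPKM in Stab1-/- replicate 4 at 2 weeks, with the nearest at 11.2, and still below every wildtype library of that age. Groups of 3 libraries were not examined in this way.

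The genotype difference of Kdr differed between the stages, with an interaction (E17.5 minus 2 weeks) of 0.68 on the log2 scale (edgeR, Benjamini-Hochberg adjusted p = 0.0270).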

How the results depend on the processing

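The members called at 2 weeks numbered 4. They were 9 by DESeq2, 2 with library totals, 7 with 1 fit of 15 libraries, 8 with the replicate block, 1 by limma with either pseudocount (0.1 or 1), and 0 to 8 when 1 library was left out. Ramp2 was called by all 10 alternatives that kept every library, with adjusted p from 0.00216 to 0.0351. Over the same 10 the adjusted p ran from 0.00174 to 0.0621 for Dnase1l3, 0.00549 to 0.110 for Plxnc1 and 0.00754 to 0.110 for Kdr. The number of members called at E17.5 was 0 under every alternative, and the wildtype stage counts stayed within 1.5 times. In Stab1-/- livers members higher at 2 weeks went from 15 to 9 with library totals and with both limma fits, and members lower from 5 to 8 with library totals and limma with pseudocount 0.1 and to 9 with pseudocount 1. Members with a called interaction went from 1 to 6 by DESeq2, 2 with median-of-ratios, 2 with GC offsets, 7 with the replicate block, 6 with the block and GC offsets, 0 by limma with pseudocount 0.1, and 0 to 5 when 1 library was left out.

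Sign changes were listed where the main or the alternative fit passed the threshold. Between stages they were those of Gpr182 in wildtype livers (-0.0021 with library totals, -0.0069 and -0.0064 by limma with pseudocounts 0.1 and 1), Plxnc1 in wildtype livers (-0.0086, -0.0051 and -0.0047) and Gpr182 in Stab1-/- livers by limma (-0.21 and -0.20). Of 2245 values over all comparisons that passed in neither fit, 174 had the other sign, in 27 members. RPKM and library totals share a scale on which the median of all rows was below 0 between stages, and the cause of that shift was not tested. Over all rows, DESeq2 called 887 (7.11%) and the replicate block 1181 (9.29%) at 2 weeks, against 340 (2.67%). The fit of 15 libraries called 5.06% at 2 weeks. In the interaction DESeq2 called 8.34% of rows, the replicate block 7.84% and the block with GC offsets 5.53%, against 1.81%. Replicate numbers were shared by the labels, but same-numbered libraries had correlated deviations of 0.0233 to 0.204 at 2 weeks and -0.178 to 0.0004 at E17.5, and 5 of 8 and 0 of 7 libraries matched their own number best, so the numbers were not taken to pair animals. At this depth Sele could not be compared, and the values of Selp and Cd34 at 2 weeks rest on few reads.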
